A study of Mus musculus with 11 samples.

Results

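The genes of the LIF-STAT3 pathway were followed in RNA sequencing of mouse embryonic stem cells (ESCs). The set held 9 genes chosen by symbol: Lifr, Il6st, Jak1, Stat3, Socs2, Socs3, Cish, Pim1 and Pim3. All 9 were found among the 23284 genes listed for each library, and all 9 passed the expression filter. The 11 libraries came from wild-type (WT) cells and from cells with knock-out of Tet1, Tet2 and Tet3 (TKO), the genes of the dioxygenases that oxidise 5-methylcytosine. WT and TKO cells were sampled untreated (0 h) or after 4 h in 10 μg/ml α-amanitin, which blocks RNA polymerase II. These 4 groups had 2 libraries each, made from total RNA depleted of ribosomal RNA. A further 3 WT libraries, with no α-amanitin treatment on their labels, were made from polyadenylated RNA. All cells, WT and TKO alike, grew on gelatin with 15% FBS and 1000 unit/ml of recombinant mouse leukemia inhibitory factor (LIF), so no library shows the pathway without its ligand. The strain and the number of TKO clones are not given in the sources used here, so the genotype and the history of the line cannot be told apart.

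LIF binds a receptor made of LIFR and the shared signalling chain that Il6st encodes. Kinases of the JAK family then phosphorylate STAT3, which enters the nucleus and switches on its target genes. In mouse ESCs this signal sustains self-renewal. Among the targets are the SOCS proteins, which bind the receptor or its kinases and limit the signal, and the PIM kinases, serine/threonine kinases linked to growth and survival. Socs3 and Pim family transcripts are textbook examples of RNAs that are made and lost quickly.

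Levels are given in TPM, a length-corrected share of a library's transcripts, so levels of different genes can be compared within a library. The ribodepleted libraries held 25507874 to 29781366 reads in genes and the polyA libraries 72639837 to 82129168, as recovered from the TPM steps. Cish rested on 61 to 102 reads in the ribodepleted libraries, and the other 8 genes rested on 1380 reads or more in every library. TKO libraries held less Tet1 (29.9 to 30.2 scaled TPM at 0 h, against 124 to 143 in WT) and less Tet2 (7.17 to 7.73 against 48.1 to 55.5). Tet3 was low in both genotypes (1.39 to 1.51 and 1.42 to 1.48), and the part of each gene that was deleted is not given in the sources used here. All 7 ESC markers (Pou5f1, Sox2, Nanog, Esrrb, Zfp42, Utf1, Tdgf1) were above 1 TPM in every library (scaled if ribodepleted, deposited if polyA). Their summed level was 2913 to 2945 scaled TPM in WT and 2213 to 2237 in TKO at 0 h. The 7 fibroblast markers summed to 8.39 to 8.83 and 11.9 to 12.3, the 7 endoderm markers to 4.47 to 4.50 and 3.22 to 4.15, and the 5 primed epiblast markers to 18.6 to 20.8 and 20.9 to 22.4. Single markers went both ways. At 0 h the log2 differences of TKO against WT ran from -2.08 (Zfp42) to 0.16 (Nanog) among the ESC markers. Among the primed epiblast markers they ran from -0.41 (Otx2) to 1.11 (Fgf5). The part of these differences in the results below was not tested. In bulk RNA, fewer cells expressing a gene and less RNA per cell cannot be told apart.

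The genes lie at the following places in NCBIM37 (mm9), the build of the files. The receptor genes are Lifr (chr15:7079559-7147489, plus strand) and Il6st (chr13:113265216-113297068, plus). The kinase gene Jak1 is at chr4:100824972-100937887 (minus) and Stat3 at chr11:100746412-100800854 (minus). The SOCS genes are Socs2 (chr10:94847996-94879814, minus), Socs3 (chr11:117827393-117831361, minus) and Cish (chr9:107198357-107205115, plus). The PIM genes are Pim1 (chr17:29627757-29632390, plus) and Pim3 (chr15:88692616-88696150, plus). Exons of Stat3 share 72 bases with those of Stat5a, which lies on the opposite strand, and exons of Jak1 share 4 bases with Raver2. Whether the counting used strand is not stated, but these bases are 0.756% and 0.0553% of the exonic length of Stat3 and Jak1.

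STAT proteins bind palindromes of the form TTCNNNGAA, which reads the same on both strands. RefSeq promoter windows (GRCm38.p6, from 250 bases before to 50 after the start) were matched for 8 of the 9 genes. The motif stood in 2 of these 8, Socs3 and Cish, against 9.55% of the 27025 genes with a window. Both are shown because they are the genes in which the letters were found, with the motif in capitals. The Socs3 match begins 154 bases before the start, and the Cish matches begin at base 1 and base 12 of the transcript.
Socs3 upstream (chr11:117969367-117969616, minus strand): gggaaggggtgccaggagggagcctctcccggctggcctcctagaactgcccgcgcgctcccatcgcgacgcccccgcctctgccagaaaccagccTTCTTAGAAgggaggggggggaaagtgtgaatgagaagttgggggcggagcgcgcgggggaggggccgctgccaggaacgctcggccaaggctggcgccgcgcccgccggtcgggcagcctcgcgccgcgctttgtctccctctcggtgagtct
Cish start (chr9:107296655-107296682, plus strand): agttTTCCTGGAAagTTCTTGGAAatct

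AU-rich stretches in a 3′ untranslated region are known to speed the loss of many short-lived RNAs. The letters TATTTAT, searched on the sense strand with overlaps counted, occurred in the GENCODE 3′ untranslated regions of Cish (3 matches), Socs3, Socs2 and Pim3 (2 matches each). They did not occur in those of Lifr, Il6st, Jak1, Stat3 or Pim1. These regions ran from 698 to 6320 bases. The share of all genes with a match in the whole region is not given here. Within the first 500 bases after the stop codon, which allows genes of different length to be compared, 2 of the 9 genes (Cish and Pim3) held a match, against 11.2% of 11871 genes. The matches of Socs3 and Socs2 lay beyond this window. Fitted log2 changes in WT under α-amanitin were -0.65 for Socs3, -0.61 for Pim3, -0.41 for Cish and -0.16 for Socs2. Those of the genes without a match ran from -0.28 (Pim1) to 0.19 (Jak1). Whether these letters bear on the changes was not tested. A site from each of the 3 genes with the largest fitted decreases in WT cells under α-amanitin is shown, with the matches in capitals (NCBIM37).
Socs3 (chr11:117827450-117827479, minus strand): ttgcacataTATTTATATTTATactcagaa
Pim3 (chr15:88695650-88695679, plus strand): accacggtctctTATTTATggtgtgatcac
Cish (chr9:107203707-107203736, plus strand): ttatacagTATTTATTTATTTATtctcctt

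In the ribodepleted libraries of untreated WT cells Socs3, Pim3, Pim1 and Socs2 were the most abundant of the set, and Cish was the least abundant. This order did not hold in full in the WT polyA libraries, where Socs2 (44.4 to 46.6 scaled TPM) lay below Stat3 (47.6 to 50). After scaling of the 8 ribodepleted libraries to a common level, Socs3 stood at 112 ± 3.3 TPM (SD, n = 2), Pim3 at 112 ± 5.3, Pim1 at 105 ± 0.92 and Socs2 at 103 ± 1.8. Stat3 followed at 66.4 ± 1.1, Lifr at 49.9 ± 3.2, Il6st at 39.7 ± 0.39, Jak1 at 18.6 ± 0.57 and Cish at 3.28 ± 0.017. The libraries of Socs3 (110 and 115) and Pim3 (109 and 116) overlapped, so their order was not resolved. Pim1 at 106 and 105 lay above Socs2 at 101 and 104 by less than the spread seen for Socs3. Untreated TKO cells had another order, led by Pim1 at 151 ± 7.3 scaled TPM and Socs2 at 86.0 ± 1.4, with Pim3 at 68.7 ± 2.8 and Socs3 at 62.5 ± 1.8. Lifr, at 24.3 ± 0.11, stood below Jak1 (25.6 ± 0.53) and Il6st (31.0 ± 0.20) there, whereas in untreated ribodepleted WT libraries it stood above both. In the WT polyA libraries, scaled separately, Lifr (17.4 ± 0.76, n = 3) also stood below Jak1 (25.7 ± 0.64) and Il6st (29 ± 1.6).

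**Figure D1:**
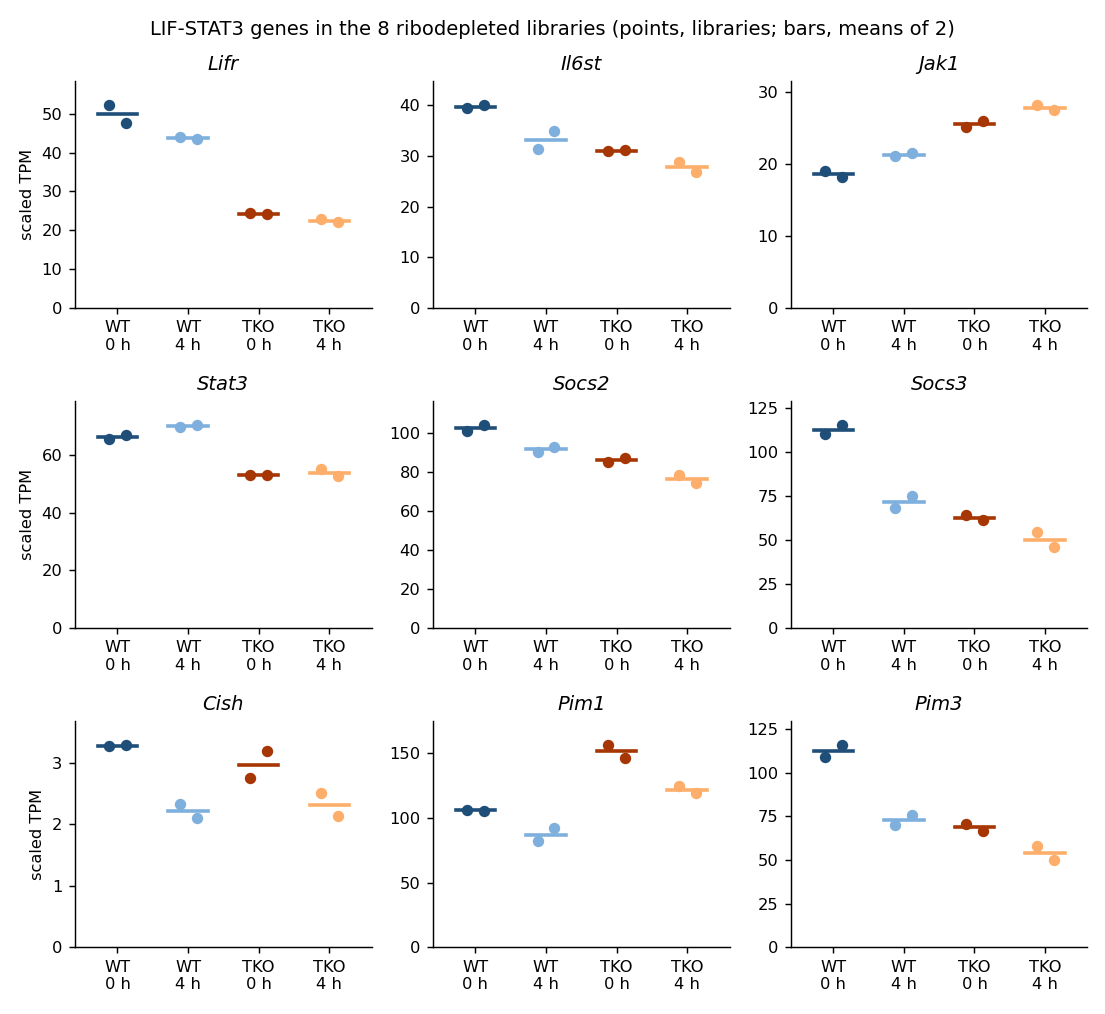
Level of each of the 9 genes in the 8 ribodepleted libraries. The y axis is scaled TPM from 0, each point is a library and each bar is the mean of the 2 libraries of a group. Lifr separates by genotype (47.6 and 52.2 in WT at 0 h, 24.2 and 24.4 in TKO), whereas Socs3 and Pim3 differ by both genotype and treatment.

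The genotypes were first compared in untreated cells. The genes of the LIF receptor and of several targets were lower in TKO cells, and 2 genes, Jak1 and Pim1, were higher. A gene passed when limma's Benjamini-Hochberg adjusted p was under 0.05, and was called when it also differed by over 1.5-fold. Differences were taken after adding 1 to the scaled TPM, which makes those of low genes look smaller. Of the 9 genes, 3 were called lower (Lifr, Socs3 and Pim3) and none higher, against 5.45% and 10.4% of the 12467 tested genes (15.9% in either direction). As many as 8 passed, 6 lower and 2 higher, against 28.3%, 27.8% and, in either direction, 56.1% of tested genes, so passing alone was common. The libraries of the genotypes did not overlap for any of the 9 genes, which held for 81.7% of tested genes. The median log2 difference was -0.31 over the 9 genes and -0.020 over all tested genes.

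Among the receptor genes, Lifr, whose product binds LIF itself, stood at 52.2 and 47.6 scaled TPM in WT and at 24.4 and 24.2 in TKO. Every TKO value was well below the lower WT value. The difference was 2.01-fold (log2 difference -1.01 ± 0.056, SE; limma adjusted p = 2.67e-06). Il6st, the signalling chain shared with the other cytokines of the IL-6 family, stood at 39.5 and 40.0 in WT and at 30.9 and 31.2 in TKO. Its difference of 1.27-fold (log2 -0.35 ± 0.062, adjusted p = 0.00156) was in the same direction and smaller than that of Lifr. Jak1, the kinase bound to both chains, went the other way. It stood at 19.0 and 18.2 scaled TPM in WT and at 25.2 and 26 in TKO, a difference of 1.36-fold (log2 0.44 ± 0.051, adjusted p = 0.000128). Stat3 itself stood at 65.6 and 67.2 in WT and at 53.0 and 53.3 in TKO. That was 1.24-fold lower (log2 -0.31 ± 0.044, adjusted p = 0.000383), with replicates closer to each other than the genotypes were.

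Among the SOCS genes, Socs3, the feedback inhibitor that binds the shared receptor chain, stood at 110 and 115 scaled TPM in WT and at 63.7 and 61.2 in TKO. It was 1.79-fold lower in TKO (log2 -0.84 ± 0.079, adjusted p = 4.18e-05). Socs2, better known as the inhibitor of growth hormone signalling, was at 101 and 104 in WT and at 85.1 and 87.0 in TKO. Its difference was 1.19-fold (log2 -0.25 ± 0.046, adjusted p = 0.00176). It lost the threshold when the deposited TPM were used without scaling (adjusted p = 0.0623). Cish, a SOCS family inhibitor best known downstream of STAT5, read 3.27 and 3.29 in WT and 2.75 and 3.19 in TKO. The WT and TKO values lay within 1 TPM of each other, and the difference did not pass (log2 -0.11, 95% interval -0.34 to 0.12, adjusted p = 0.374).

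The PIM genes moved in opposite directions. Pim3 stood at 109 and 116 scaled TPM in WT and at 70.7 and 66.8 in TKO, a 1.63-fold lower level (log2 -0.70 ± 0.075, adjusted p = 8.43e-05). Pim1 stood at 106 and 105 in WT and at 156 and 146 in TKO, a 1.43-fold higher level (log2 0.52 ± 0.063, adjusted p = 0.00018). Each of these genes thus separated the genotypes, with opposite signs. Pim1 fell just inside the 1.5-fold limit here and was called higher with the deposited TPM (log2 0.62) and after quantile normalisation (0.64).

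After 4 h in α-amanitin the genotype differences had the same signs for the 8 genes that had passed in untreated cells. Again 8 of 9 genes passed, 6 lower and 2 higher in TKO, against 30.4% and 29% of tested genes (59.4% in either direction). Only Lifr was called, as lower, where 5.83% of tested genes were called lower, 11% higher and 16.8% in either direction. The libraries did not overlap for 8 of the 9 genes, against 78.2% of tested genes. Lifr stood at 44.0 and 43.5 scaled TPM in WT and at 23.0 and 22.0 in TKO, 1.91-fold lower (log2 -0.93 ± 0.056, adjusted p = 3.8e-06). Its genotype difference changed by 0.08 on the log2 scale from that at 0 h (95% interval -0.10 to 0.26). Socs3 stood at 68.2 and 74.6 in WT and at 54.2 and 45.7 in TKO (log2 -0.51 ± 0.079, adjusted p = 0.000609). Pim3 stood at 70.3 and 76.0 in WT and at 58.0 and 50.1 in TKO (log2 -0.43 ± 0.075, adjusted p = 0.00114). For both, the TKO libraries still lay below the WT libraries, by less than 1.5-fold. TKO replicate 1 had the higher Socs3 and Pim3 of its pair, and without it Socs3 was also called (log2 -0.63, adjusted p = 0.000201).

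The remaining genes at 4 h were Stat3 (log2 -0.37 ± 0.044, adjusted p = 0.000129), Il6st (-0.24 ± 0.062, 0.00944) and Socs2 (-0.26 ± 0.046, 0.00123), all lower in TKO. Jak1 (0.37 ± 0.051, 0.000318) and Pim1 (0.48 ± 0.063, 0.000237) were higher. Without scaling of the deposited TPM, which moves the median of all genes by 0.138, Il6st (-0.09, adjusted p = 0.396) and Socs2 (-0.10, 0.175) no longer passed, while Pim1 reached a call (0.64). Il6st also missed the threshold without WT 4 h replicate 2 (-0.17, adjusted p = 0.0707). Cish did not differ detectably (0.04, 95% interval -0.19 to 0.28), with its sign set by the scaling (-0.16 after quantile normalisation).

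**Figure D2:**
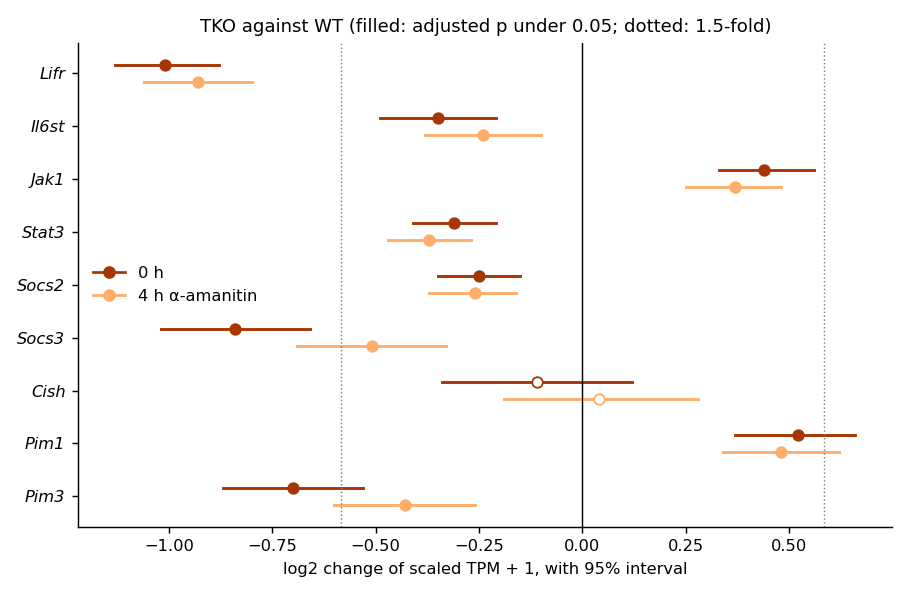
Log2 difference of TKO against WT for the 9 genes, on scaled TPM + 1, with 95% intervals; dark points are 0 h, light points 4 h in α-amanitin, filled points passed and dotted lines mark 1.5-fold. Lifr lies near -1.01 and -0.93 at the 2 times, Jak1 and Pim1 lie above 0, and Cish spans 0.

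The effect of stopping transcription was then compared within each genotype. TPM are shares of a library, so these values show which RNAs lost ground relative to the rest, and no absolute loss. In WT cells, 7 of the 9 genes passed as lower at 4 h and 1, Jak1, as higher, against 15.8% and 21.9% of tested genes. Passing in either direction was seen for 37.7% of tested genes. Called as lower were 2 genes, Socs3 and Pim3, against 2.01% of tested genes (0.0882% were called higher and 2.1% in either direction). The libraries of the times did not overlap for any of the 9 genes, against 72.9% of tested genes. The median log2 change was -0.26 over the 9 genes and 0.029 over all tested genes.

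Socs3 went from 110 and 115 scaled TPM at 0 h to 68.2 and 74.6 at 4 h in WT cells. This was 1.57-fold lower (log2 -0.65 ± 0.079, SE; limma adjusted p = 0.00344). Pim3 went from 109 and 116 to 70.3 and 76.0, or 1.53-fold lower (log2 -0.61 ± 0.075, adjusted p = 0.00352). Both genes passed with each of the 8 libraries left out, but both lay close to the 1.5-fold limit. Without WT 4 h replicate 1 neither was called (Socs3 -0.58, adjusted p = 0.0395; Pim3 -0.55, 0.0408), and without WT 0 h replicate 2 Pim3 was not (-0.57, 0.0262).

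The other SOCS and PIM genes passed with smaller fitted changes. Cish, at 3.27 and 3.29 scaled TPM before and 2.33 and 2.11 after, changed by -0.41 ± 0.10 on the log2 scale (adjusted p = 0.016). The 1 TPM added before the logarithm makes the change of this low gene look smaller. Alternative scalings, pseudocounts, filters and fits gave -0.56 to -0.20 for Cish. Pim1 went from 106 and 105 to 81.7 and 92.1 (log2 -0.28 ± 0.063, adjusted p = 0.013), and Socs2 from 101 and 104 to 90.2 and 93.0 (-0.16 ± 0.046, 0.0265). For both Pim1 and Socs2 the 2 treated WT libraries lay below the untreated ones, by under 1.5-fold. The receptor chains also passed as lower. Il6st went from 39.5 and 40.0 to 31.4 and 34.9 (-0.26 ± 0.062, adjusted p = 0.0153), and Lifr from 52.2 and 47.6 to 44.0 and 43.5 (-0.18 ± 0.056, 0.0325). Fits that left out a library kept all these signs, but Lifr missed the threshold in 5 of 8 such fits, Cish, Socs2 and Jak1 in 4, Il6st in 3 and Pim1 in 2. Fewer of the 9 genes passed when a WT library was left out. Such a fit leaves 1 library in a group, and the share of all tested genes that passed in it is not given here.

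Jak1 and Stat3 were the 2 genes of the 9 with values above 0. Jak1 went from 19.0 and 18.2 scaled TPM to 21.2 and 21.5 in WT cells (log2 0.19 ± 0.051, adjusted p = 0.021). Stat3 went from 65.6 and 67.2 to 69.9 and 70.5, which did not pass (0.08, 95% interval -0.02 to 0.18, adjusted p = 0.181). The scaling decided both of these small values: with the deposited TPM, which moved the median of all genes to -0.11, Jak1 changed by 0.04 (adjusted p = 0.715) and Stat3 by -0.08 (0.347).

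In TKO cells none of the 9 genes passed in limma, where 0.265% of tested genes passed. At an unadjusted p under 0.05 there were 7 of the 9 genes and 3113 of 12467 tested genes. With limma voom on recovered reads 3 passed, all lower (Socs3, Pim1 and Pim3). In that fit 503 of the 12467 tested genes passed as lower and 234 as higher. The fitted values had the same signs as in WT for all 9 genes. Pim3 stood at 70.7 and 66.8 scaled TPM before and at 58.0 and 50.1 after (log2 -0.34 ± 0.075, adjusted p = 0.0928). Socs3 stood at 63.7 and 61.2 before and at 54.2 and 45.7 after (-0.32 ± 0.079, 0.111). The treated libraries lay below the untreated ones for both, and TKO 4 h replicate 1 was nearer to them. Without that library Socs3 was at -0.44 and Pim3 at -0.45.

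For the remaining genes in TKO, Pim1 was at 156 and 146 scaled TPM before and 124 and 119 after (log2 -0.31 ± 0.063, adjusted p = 0.0838). Cish (-0.26), Socs2 (-0.17), Il6st (-0.15) and Lifr (-0.11) were below 0 and Jak1 (0.12) above it, with adjusted p from 0.12 to 0.258. Stat3, at 53.0 and 53.3 before and 55.3 and 52.7 after, was the 1 gene whose libraries overlapped (0.02, 95% interval -0.08 to 0.12). The other 8 did not overlap, against 58.7% of tested genes.

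**Figure D3:**
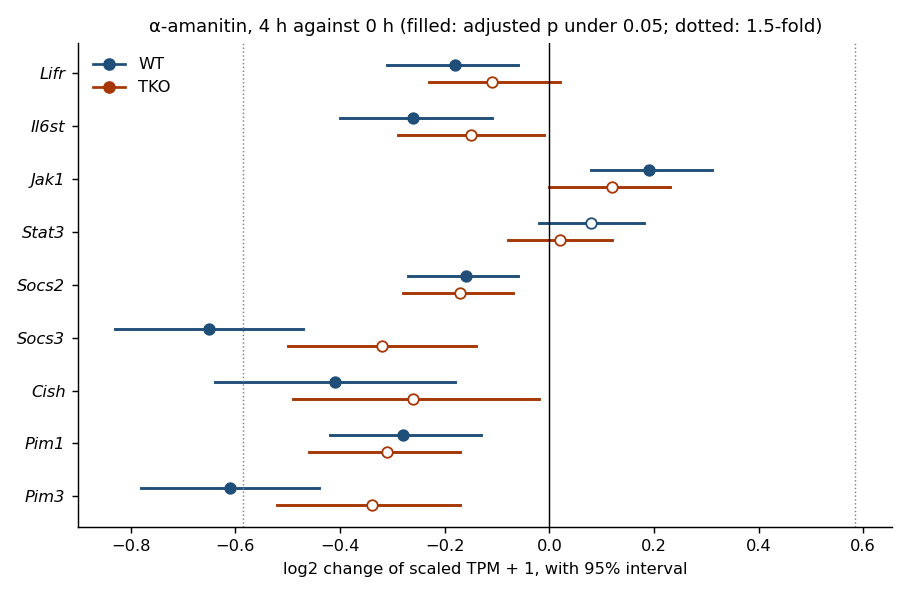
Log2 change of the 9 genes from 0 h to 4 h in α-amanitin in WT (dark blue) and TKO (brown) cells, on scaled TPM + 1, with 95% intervals. Filled points passed and dotted lines mark 1.5-fold; Socs3 (-0.65) and Pim3 (-0.61) lie beyond the line in WT, and in TKO no point is filled.

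Whether the change differed between the genotypes was tested as an interaction. None of the 9 genes passed in limma, as for all tested genes (0%), nor with limma voom on recovered reads. At an unadjusted p under 0.05 there were 2 of the 9 genes, and 940 of 12467 tested genes. They were Socs3, whose change was 0.33 less negative in TKO on the log2 scale (95% interval 0.07 to 0.58, limma adjusted p = 0.662), and Pim3, with 0.27 (0.03 to 0.51, adjusted p = 0.662). Pim1 had nearly equal changes (difference -0.04, interval -0.24 to 0.16), as did Socs2 (-0.01, -0.16 to 0.14). The different counts of passing genes in WT and TKO are therefore not shown to reflect a different response.

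Ratios between genes of 1 library do not depend on the scaling between libraries and were taken as a description. Socs3 over Stat3 was 1.68 and 1.71 in untreated WT libraries, 0.976 and 1.06 in treated WT, 1.20 and 1.15 in untreated TKO, and 0.980 and 0.867 in treated TKO. The untreated WT libraries thus stood above the other 6. Pim3 over Stat3 gave the groups the same order, with 1.65 and 1.73, 1.01 and 1.08, 1.33 and 1.25, and 1.05 and 0.950. Socs2 over Stat3 separated the times more than the genotypes: 1.54 and 1.55 in untreated WT, 1.6 and 1.63 in untreated TKO, 1.29 and 1.32 in treated WT, and 1.42 and 1.41 in treated TKO. Lifr over Il6st separated the genotypes instead. There was more Lifr than Il6st in all 4 ribodepleted WT libraries (1.19 to 1.40) and less in all 4 TKO libraries (0.777 to 0.819). With 2 libraries a group, an exact two-sided permutation test cannot go below p = 0.33, so none was run.

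**Figure D4:**
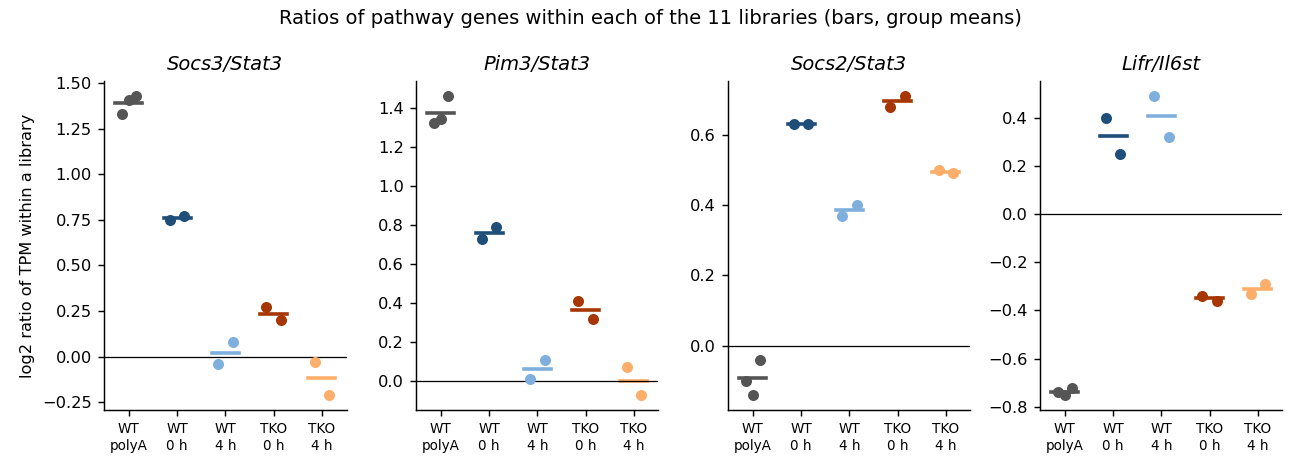
Log2 ratio of deposited TPM between pairs of pathway genes within each of the 11 libraries; points are libraries and bars are group means. Socs3/Stat3 and Pim3/Stat3 are near 0 in treated cells of both genotypes and highest in WT polyA libraries (means 1.39 and 1.37), and Lifr/Il6st is above 0 in ribodepleted WT libraries and below 0 in the others.

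The WT libraries of the 2 kinds of RNA were compared in a separate fit of 5 libraries, since the readout of a gene can depend on the library preparation. Of the 9 genes, 3 were called lower in polyA libraries (Lifr, Socs2 and Pim1) and 1 higher (Cish), against 16.4% and 18.7% of 12478 tested genes (35.2% in either direction). Another 4 passed without being called, which made 5 lower and 3 higher, against 40.9% and 40.1% of tested genes (81% in either direction). The libraries did not overlap for any of the 9 genes, against 87% of tested genes. Lifr stood at 17.4, 18.2 and 16.7 scaled TPM in polyA libraries and at 55.1 and 50.2 in ribodepleted ones. It was 2.91-fold lower in polyA (log2 -1.54 ± 0.055, adjusted p = 4.54e-08), a larger gap than that between the genotypes. Socs2 stood at 46.6, 44.4 and 46.2 in polyA and at 107 and 110 in ribodepleted libraries (-1.22 ± 0.039, 2.22e-08). Pim1 stood at 71.9, 72.1 and 69.7 against 112 and 110 (-0.63 ± 0.036, 5.68e-07). It was inside the 1.5-fold limit with the deposited TPM (-0.53) and after quantile normalisation (-0.56).

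Cish was the gene most raised in polyA libraries, at 6.84, 7.16 and 7.56 scaled TPM against 3.45 and 3.48 (log2 0.87 ± 0.064, adjusted p = 2.81e-06). With a pseudocount of 5 TPM its difference was 0.53, inside the 1.5-fold limit, and it was no longer called. Stat3 (-0.51 ± 0.038, 3.19e-06) and Il6st (-0.52 ± 0.050, 1.64e-05) were lower in polyA and Jak1 (0.37 ± 0.045, 6.59e-05) was higher. Socs3 (0.11 ± 0.037, 0.0233) and Pim3 (0.09 ± 0.044, 0.0866) were at nearly the same level in both kinds of library. Socs3 was at 126 to 130 against 116 and 121, and Pim3 at 124 to 131 against 115 and 123. Socs3 missed the threshold without WT polyA replicate 2 (0.11, adjusted p = 0.0538) or WT 0 h replicate 1 (0.07, 0.149), and Pim3 passed without WT 0 h replicate 2 (0.13, 0.044). Lifr over Il6st was 0.595 to 0.607 in the polyA libraries, so the order of the receptor chains in WT cells depended on the kind of RNA sequenced. RNA selection, kit, sequencing run and culture cannot be told apart here.

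**Figure D5:**
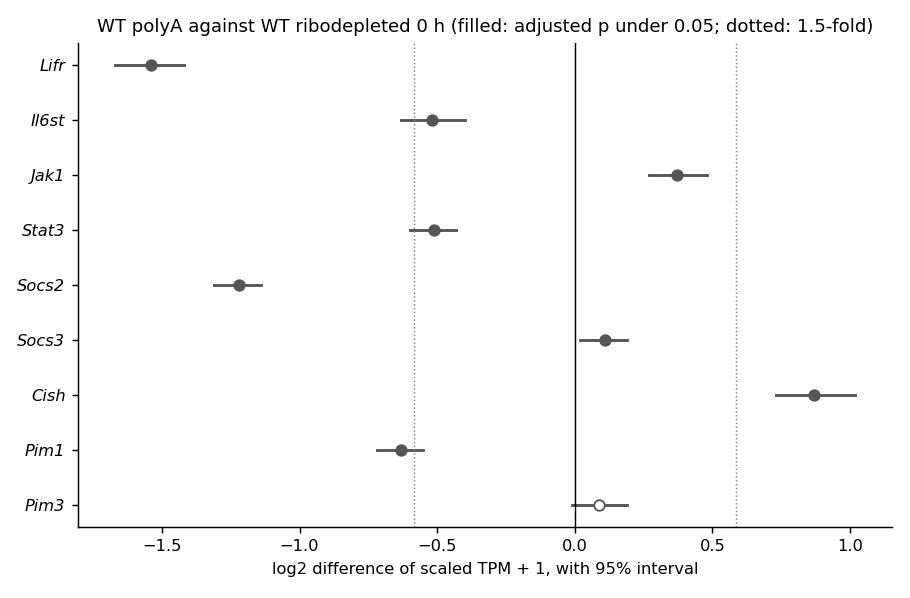
Log2 difference of WT polyA libraries (n = 3) against untreated WT ribodepleted libraries (n = 2) for the 9 genes, on scaled TPM + 1, with 95% intervals. Filled points passed and dotted lines mark 1.5-fold; Lifr (-1.54) and Socs2 (-1.22) lie farthest below 0 and Cish (0.87) farthest above.

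The wider pathway was covered by a list of 45 further genes: other ligands, receptors, kinases, STATs, inhibitors, adaptors and target transcription factors. In the ribodepleted libraries 38 of them were tested. Between the genotypes at 0 h, 13 passed as higher in TKO and 15 as lower, against 27.8% and 28.3% of tested genes. In each direction 4 were called, against 10.4% higher and 5.45% lower of tested genes. Their median log2 difference was -0.05. At 4 h, 12 passed as higher and 17 as lower, against 29% and 30.4% of tested genes, and 4 and 5 were called, against 11% and 5.83% (median -0.04). These shares (28 and 29 of 38) lie above the 56.1% and 59.4% of all tested genes; the difference was not tested.

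The target transcription factors held 5 of the 15 genes lower in TKO at 0 h, and 1 of their 9 was higher. Of all tested genes 28.3% passed as lower and 27.8% as higher. Gbx2, a homeobox factor that sustains self-renewal downstream of STAT3, stood at 29 and 32.7 scaled TPM in WT and 10.7 and 11.1 in TKO (log2 -1.42 ± 0.12, adjusted p = 2.94e-05). Klf4, a reprogramming factor and target of the JAK-STAT3 branch, stood at 47.6 and 49.3 in WT and at 22.6 and 25.8 in TKO (-0.98 ± 0.12, 0.000154). For both, the TKO values lay well below the WT values. Bcl3 (-0.67, adjusted p = 4.8e-05), a nuclear cofactor of NF-κB and STAT3 target, and Klf5 (-0.61, 0.00109), a pluripotency factor, were also called lower. Myc passed as lower (-0.31, limma adjusted p = 0.00414) and Cebpb as higher (0.49, 0.0173), neither called. Tfcp2l1 (-0.08), Sall4 (-0.07) and Junb (0.05) did not pass.

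Higher in TKO at 0 h were Lif, Stat5b, Socs1 and Socs6. Lif, the ligand, stood at 2.06 and 2.25 scaled TPM in WT and at 4.29 and 4.32 in TKO (log2 0.75 ± 0.10, adjusted p = 0.000346). The untreated TKO libraries thus held more Lif RNA, in medium to which LIF protein had been added. Stat5b (0.70, adjusted p = 0.00128), a growth hormone and cytokine responsive STAT, Socs1 (0.68, 0.000578), an inhibitor of JAK kinases, and Socs6 (0.62, 1.4e-05), another SOCS protein, were also called higher. At 4 h the called genes were Gbx2 (-1.31), Klf4 (-0.96), Jak3 (-0.77) and Bcl3 (-0.75) among those lower, with Klf5 (-0.62), and Stat5b (0.75), Socs6 (0.70), Lif (0.67) and Stat5a (0.65) among those higher. Each had an adjusted p of 0.000874 or less.

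Under α-amanitin, 7 of the 38 genes passed as higher and 7 as lower in WT, against 21.9% and 15.8% of tested genes, and 1, Myc, was called, against 2.1%. These counts are near the background. Myc, a transcription factor whose RNA is known to turn over fast, stood at 33.9 and 35.0 scaled TPM at 0 h and at 21.3 and 22.3 at 4 h (log2 -0.64 ± 0.066, adjusted p = 0.0022), a change of the size seen for Socs3 and Pim3. In TKO it stood at 27.6 and 27.7 and then at 19.8 and 22.6 (-0.37 ± 0.066, adjusted p = 0.0659). In TKO none of the 38 passed in limma (10 had an unadjusted p under 0.05), nor did any in the interaction (3). Between polyA and ribodepleted WT libraries, 17 of 39 tested genes passed as higher and 11 as lower, against 40.1% and 40.9% of all tested genes. Called were 11 as higher and 4 as lower, against 18.7% and 16.4%. The largest called differences were those of Cntfr (2.36), Klf5 (1.53), Gbx2 (1.42), Grb2 (1.23), Bcl3 (1.17) and Pias3 (1.04), with Stat4 (-1.33) on the lower side beside Sall4, which stood at 97.7 to 102 scaled TPM in polyA and at 195 and 207 in ribodepleted libraries.

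Genes whose 4 group means followed the same profile were sought among 9671 genes of at least 5 scaled TPM, by the root mean square difference of centred log2 means. For Socs3 the nearest were Jrk (0.023), Arc (0.040) and Thtpa (0.051), and Pim3 was the fourth (0.056). Jrk stood at 10.9, 6.60, 5.73 and 4.54 scaled TPM in WT 0 h, WT 4 h, TKO 0 h and TKO 4 h. For Stat3 the nearest were Polr3b (0.007), Oxsr1 (0.009) and Paf1 (0.011). Polr3b stood at 65.4, 69.0, 51.7 and 53.0, each close to the Stat3 mean of its group. The profiles rest on 4 group means of 2 libraries each.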

How the data were processed

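According to the study's methods, the authors removed low-complexity and ribosomal or transfer RNA reads (AfterQC, Bowtie2), trimmed adapters (Trimmomatic), aligned to mm9 with STAR and RefSeq genes, counted with HTSeq and deposited TPM for each gene; versions and strand setting are not given in the sources used here. Titles of the samples gave their groups and replicate numbers. The study describes the α-amanitin libraries as biological duplicates and states in general that its experiments were repeated independently. Its methods mention polyA RNA sequencing without describing the replicates, and the labels of the polyA libraries do not mention separate cultures.

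Scaled TPM were obtained with size factors by median of ratios (0.8904 to 1.086), 1 was added and the log2 values entered limma (version 3.58.1, R version 4.3.3; lmFit, eBayes with trend) over all genes with a mean scaled TPM above 1: 12467 in 8 ribodepleted libraries with 1 coefficient per group, 12478 in 5 WT libraries. Tests were two-sided with Benjamini-Hochberg adjustment over all tested genes. The study's own differential test ran on raw counts, so the calls are not equivalent to it. The script was tested on simulated data. Reads were recovered from the steps of the TPM values (within 0.01 of a whole number for 100% of 19869 genes above 0) for depth and for limma voom. Chi-square per degree of freedom between replicates was 1.56 to 11.12, so replicates differed by more than the sampling of reads. This does not show that they came from separate cultures. Every library was counted as its own replicate.

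Named were the 9 genes in every comparison, other listed pathway genes called in a comparison (up to 8, by size), Lif, Klf4, Tet1 and Tet2, and the 3 genes most alike in profile to Socs3 and to Stat3. Tet3, Klf5 at 4 h and Myc in TKO were added after their values were seen. So were the target transcription factors not called at 0 h and the markers at the ends of a range. Members and lists were chosen with earlier results of these data known. Alternatives were other scalings, pseudocounts, filters and fits, a replicate block, and leaving out each library.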

Additional observations from a re-analysis of the deposited data

How the results depend on the processing

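Without the 1.5-fold limit, 8 of the 9 genes counted in WT under α-amanitin, in TKO against WT at 0 h and at 4 h, and in polyA against ribodepleted libraries (2, 3, 1 and 4 with it). Of the wider list 14, 28, 29 and 28 then counted, against 1, 8, 9 and 15. Of all tested genes 37.7%, 56.1%, 59.4% and 81% then counted, against 2.1%, 15.9%, 16.8% and 35.2%. With deposited TPM the wider list had 2 calls in WT under α-amanitin and the 9 genes had 2 at 4 h, as after quantile normalisation (2). Over all genes, deposited TPM gave 585 calls lower and 4 higher in WT under α-amanitin, against 251 and 11 in the main fit. In TKO against WT at 4 h deposited TPM gave 444 lower and 1940 higher, against 727 and 1372. Quantile normalisation gave 869 and 1039 there. A pseudocount of 5 TPM left 0 calls in the wider list in WT under α-amanitin, 2 in TKO against WT at 0 h and 5 at 4 h, and a filter at 5 TPM left 5 at 0 h. Calls fell over all genes too. The pseudocount of 5 TPM left 147 lower and 1 higher in WT, 355 and 548 at 0 h, and 418 and 581 at 4 h. The filter left 482 lower and 708 higher of 9672 tested genes at 0 h, against 680 and 1302 in the main fit. Cish was not tested under that filter in the ribodepleted libraries.

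Leaving out a library in turn gave 0 to 2 calls among the 9 genes in WT under α-amanitin and 1 to 2 in TKO against WT at 4 h. Such a fit leaves 1 library in a group, which is assumed to vary like the others. The shares of all tested genes called in these fits are not given here.

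Signs turned only for small values that had not passed. With deposited TPM, Stat3 under α-amanitin was -0.08 in WT and -0.07 in TKO, and the interaction was 0.0036 for Stat3, 0.05 for Socs2 and 0.02 for Pim1. After quantile normalisation Stat3 was -0.0029 in TKO under α-amanitin, Cish -0.16 in TKO against WT at 4 h and the Socs2 interaction 0.04. Leaving out a library in turn gave -0.01 to 0.06 for Stat3 in TKO, -0.03 to 0.13 for Cish at 4 h, -0.05 to 0.03 for the Socs2 interaction and -0.14 to 0.04 for that of Pim1. A pseudocount of 1 TPM in the ratios moved Socs2/Stat3 in untreated WT to 0.62 and Lifr/Il6st in polyA libraries to -0.71.

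Deposited TPM moved the share of higher genes among all calls from 65.7% to 75.8% in TKO against WT at 0 h, and from 65.4% to 81.4% at 4 h (54.5% after quantile normalisation). The replicate block gave the same numbers of called genes among the 9 (2, 0, 3, 1, 0 and 4 in the 6 comparisons). Over all tested genes it called 260 lower and 13 higher in WT under α-amanitin, and 18 and 0 in TKO. In TKO against WT it called 681 lower and 1305 higher at 0 h, and 733 and 1370 at 4 h. The interaction had 0 calls, and polyA against ribodepleted libraries had 2036 lower and 2324 higher. In that last comparison 7 of the 9 genes passed, against 8 in the main fit. Replicate numbers did not pair the libraries (correlations of deviations from -0.044 to 0.119). With 2 libraries a group, and with TPM as shares, small changes and absolute losses of RNA are beyond these data.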
